A study of Mus musculus with 6 samples.

Results

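The genes described here are the 4 mouse metallothioneins Mt1, Mt2, Mt3 and Mt4, the metal-sensing factor gene Mtf1, and 5 zinc transporter genes, the exporters Slc30a1 and Slc30a2 and the importers Slc39a4, Slc39a5 and Slc39a14. These 10 genes, of 18193 named on the array, were chosen by their shared role in zinc handling after Mt1 had been seen to read higher in Sox9-deficient mice on these same arrays. The difference between the groups was therefore part of the choice, and the values of Mt1 are given as a description with no test. The members have 19 of the 45037 probe sets that are not array controls. Of these, 13 probe sets of 9 genes had a mean log2 value of at least 4 over the 6 arrays and entered the fit, while 1 of Mt4, 2 of Mtf1 and 3 of Slc39a14 were dimmer and did not.

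Crypt epithelium was taken from the jejunum, the middle stretch of the small intestine, of 3 mice deficient for the transcription factor gene Sox9 (KO 1 to KO 3) and 3 wild-type littermates (WT 1 to WT 3). All were C57BL/6 mice 3 months old, and each gave RNA for 1 single-colour array whose deposited values are log2 intensities. The Sox9 allele, any driver of its deletion and the sex of each mouse were not stated in the labels. Arrays carry no read depth, and 3 mice in each group limit the precision.

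The arrays differed in more than genotype. The mean of 4 Y-linked probe sets was 2.64 to 2.74 on the KO arrays and 2.67 on WT 3, but 7.59 on WT 1 and 8.19 on WT 2. Low Y-linked signal was thus found on 3 of 3 KO and 1 of 3 WT arrays, and Xist, the RNA of the inactive X chromosome, was high on the same 4. The difference between the 3' and 5' Gapdh control probe sets, a sign of RNA integrity, was 1.75 on WT 3 and 0.37 to 0.91 elsewhere. Of 3 Sox9 probe sets, 1 was lower in every mutant (2.42 to 2.75 against 5.84 to 7.61) and the other 2 overlapped between the groups. Of intestinal epithelial genes on the array, 6 of 6 goblet, 8 of 8 enterocyte, 4 of 4 stem and 6 of 7 Paneth genes passed the filter. Which part of the enterocyte signal came from crypts was not tested. Of other cell types, 0 of 4 endothelial, 0 of 2 red cell and 1 of 7 stromal and smooth muscle genes passed it. The filter was also passed by 6 of 6 T and NK cell, 3 of 4 B and plasma cell, 3 of 5 myeloid and 2 of 4 exocrine pancreas genes. The pancreatic trypsin gene Prss2 read 10.87 on KO 2 and 2.65 to 3.94 on the other arrays.

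Metallothioneins are small cysteine-rich proteins that bind zinc and copper and buffer the free metal in the cytosol. MTF1, the product of Mtf1, senses rising zinc with its zinc fingers and binds metal response elements in promoters, among them those of Mt1, Mt2 and Slc30a1. SLC30 proteins carry zinc out of the cytosol, across the cell membrane or into vesicles, and SLC39 proteins carry it in. In the small intestine SLC39A4 takes up dietary zinc at the brush border, SLC30A1 releases zinc toward the blood, and Paneth cells at the crypt base store zinc in their granules, which SLC30A2 helps to fill.

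The promoters of Mt1, Mt2 and Slc30a1 are shown because these 3 genes are textbook targets of MTF1. They come from RefSeq (GRCm38.p6), all on the plus strand, at chr8:94178839-94179138 for Mt1, chr8:94172368-94172667 for Mt2 and chr1:191906531-191906830 for Slc30a1, each with 250 bases before the annotated start and 50 from it on. Capitals mark the core of the metal response element, searched as TGCACNC and TGCGCNC on both strands.
Mt1: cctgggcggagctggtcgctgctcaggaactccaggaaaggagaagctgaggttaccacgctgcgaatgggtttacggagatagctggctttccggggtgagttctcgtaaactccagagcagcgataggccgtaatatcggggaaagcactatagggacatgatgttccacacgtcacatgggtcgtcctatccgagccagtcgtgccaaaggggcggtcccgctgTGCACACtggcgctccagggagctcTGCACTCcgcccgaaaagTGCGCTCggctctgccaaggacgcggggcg
Mt2: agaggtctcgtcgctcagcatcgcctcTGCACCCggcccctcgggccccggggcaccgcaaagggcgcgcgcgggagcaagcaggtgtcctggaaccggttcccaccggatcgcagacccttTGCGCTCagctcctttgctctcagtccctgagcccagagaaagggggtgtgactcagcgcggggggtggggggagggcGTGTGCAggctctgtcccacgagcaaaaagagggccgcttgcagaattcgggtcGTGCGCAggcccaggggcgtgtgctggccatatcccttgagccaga
Slc30a1: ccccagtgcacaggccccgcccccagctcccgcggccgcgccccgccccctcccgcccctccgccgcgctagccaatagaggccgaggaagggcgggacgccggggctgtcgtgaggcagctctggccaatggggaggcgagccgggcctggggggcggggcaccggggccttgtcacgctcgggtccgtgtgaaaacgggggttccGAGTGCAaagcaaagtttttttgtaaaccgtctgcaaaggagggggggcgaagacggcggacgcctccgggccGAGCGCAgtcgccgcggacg

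The windows held 3 matches for Mt1, 4 for Mt2 and 2 for Slc30a1. Of all 32851 RefSeq promoter windows of this length, 25.7% held at least 1 match, 7.11% at least 2, 1.97% at least 3 and 0.518% at least 4. RefSeq gave a window for 8 of the 10 members. Slc30a2 had 2 matches, Mt3 and Mt4 had 1 each, and the Mtf1 window had 0. Slc39a5 has 2 windows, with 1 match and 0 matches. The core of the antioxidant response element, TGACNNNGC, was found 1 time in the windows of Mt2 and Slc30a1 and 2 times in a window of Slc39a5, and 12.4% of all windows held it. The core that SOX factors bind, searched as ACAAAG and ACAATG on both strands, was found in 1 member window, that of Mt4, against 28.6% of all windows. A match is a run of letters and not a measured site, and the starts are those of the annotation, which need not be the ones used in crypts. RefSeq places Mt4, Mt3, the non-coding gene Gm39227, Mt2 and Mt1 next to each other in this order on chromosome 8.

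**Figure D1:**
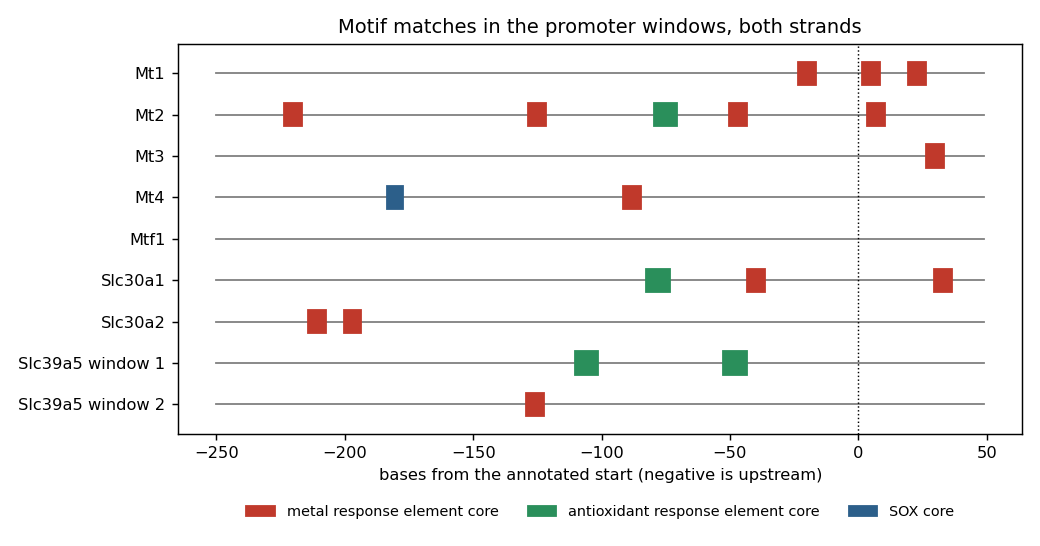
Matches to the 3 motif cores in the promoter windows of 8 members, drawn by distance in bases from the annotated start (0). Mt2 and Mt1 hold the most metal response element cores, 4 and 3, and the Mtf1 window holds 0 of any motif.

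Mt1 read higher in every Sox9-deficient mouse on its bright probe set, called Mt1 a here. Where a gene has several probe sets in the fit, letters follow their brightness. In mutants 1, 2 and 3 the log2 intensity stood at 14.65, 13.89 and 14.26, and in littermates 1, 2 and 3 at 11.24, 12.10 and 12.77. The groups did not overlap, with every KO array above every WT array, as for 5.09% of all probe sets. The highest control was WT 3, whose Y-linked signal was also low. KO averaged 14.27 with an SD of 0.38 and WT 12.03 with an SD of 0.77 (n = 3). The gap was 2.23 ± 0.41 (SE) on the log2 scale, or 4.71-fold, at rank 49 from the top among 18108 differences. Against WT 3 alone, which shares the low Y-linked signal, the KO mean was 1.503 higher, and WT 3 itself was 1.10 above the mean of WT 1 and WT 2. Once Y-linked signal was modelled, 1.57 ± 0.49 (SE) remained. A term for the Gapdh difference, which stood out on WT 3, instead gave 2.61 ± 0.33 (SE), close to the 2.60 found without WT 3. What part of the difference goes with sex-linked signal cannot be told apart from genotype with 1 control of that kind. WT 3 also had the largest Gapdh difference, 1.75. The Y-linked term compares the mutants mostly with WT 3, the only control with low signal, so it is not a separate check. In every value given against WT 3 alone or with that term, sex-linked signal and RNA integrity therefore cannot be told apart.

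The dimmer Mt1 probe set, Mt1 b, split the mutants. KO 2 stood at 8.24 and KO 3 at 9.13, whereas KO 1 stood at 5.24, level with the controls at 5.27, 5.63 and 5.77. KO 1 was thus the highest array on the bright Mt1 probe set and the lowest on this dimmer one. KO averaged 7.54 with an SD of 2.04 and WT 5.56 with an SD of 0.26 (n = 3). The gap of 1.98 ± 0.94 (SE) became 3.13 without KO 1 and 1.18 without KO 3. Mt1 a is of a kind whose probes match more than a single transcript on this array design, as its identifier in the file shows. Which part of the Mt1 transcript each probe set reads was not tested.

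Mt2, the neighbour of Mt1 and with it the widely expressed metallothionein, did not part the groups. Mutants 1, 2 and 3 stood at 12.18, 8.06 and 10.78 and littermates 1, 2 and 3 at 7.22, 9.44 and 10.08. KO 2 lay below WT 2 and WT 3, so the groups overlapped. KO averaged 10.34 with an SD of 2.10 and WT 8.91 with an SD of 1.501 (n = 3), and the gap of 1.43 had a 95% interval from -1.37 to 4.23. It was 0.51 without KO 1, 2.57 without KO 2, 0.58 without WT 1, 0.67 with array weights and 2.15 with a term for the Gapdh difference. It shrank to 0.43 once Y-linked signal was modelled and to 0.26 against WT 3 alone, values that both rest mostly on WT 3. Within each group Mt2 ranked the mice as the bright Mt1 probe set did, KO 1 over KO 3 over KO 2 and WT 3 over WT 2 over WT 1. This is a description of 3 mice in each group, and the dimmer Mt1 probe set shared the order in WT but not in KO.

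**Figure D2:**
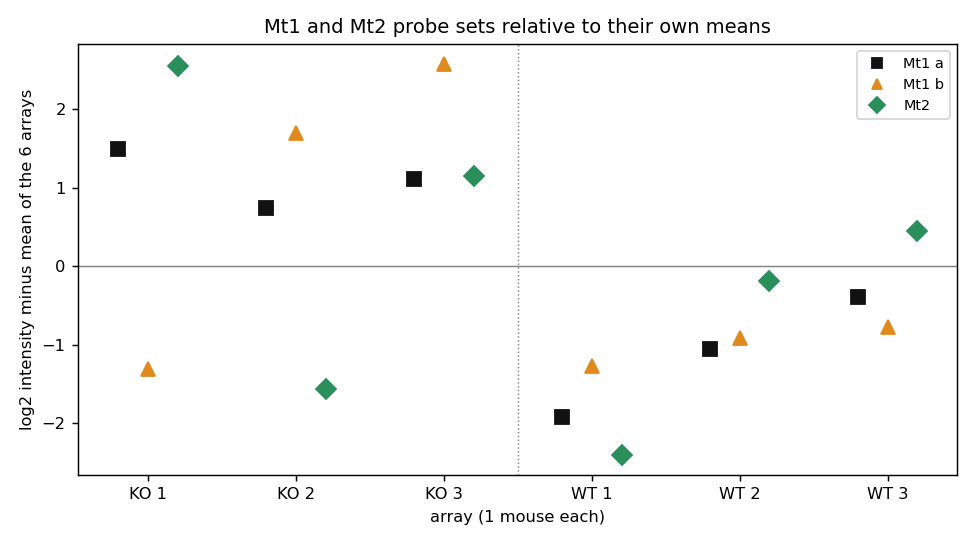
Log2 intensity of the 2 Mt1 probe sets and the Mt2 probe set on each array, minus the mean of that probe set over the 6 arrays. KO 1 lies highest for Mt1 a and Mt2 and lowest for Mt1 b, and KO 2 lies low for Mt2.

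Mt3 and Mt4, known from the brain and from squamous epithelium, stayed near the floor of the array. Mt3 read 4.74 on KO 1 and 3.80 to 3.95 on the other 5 arrays, a difference of 0.21 (95% interval -0.47 to 0.88). Without KO 1 it was -0.10, and with array weights, which gave KO 1 the least weight, -0.04. It was 0.34 without KO 2 and 0.37 without KO 3. Mt4 read 3.30 on KO 1 and 2.69 to 2.89 elsewhere and was under the filter. KO 1 was the highest array for both dim metallothioneins, as it was for Mt2 and for the bright Mt1 probe set.

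Of the 11 member probe sets in the fit other than those of Mt1, 0 passed limma's adjusted p of 0.05, where 0.0110% of all probe sets (2 of 18108) did, and 0 had an unadjusted p under 0.05. Every KO array lay above every WT array for 0 of these 11, against 5.09% of all probe sets, and below for 0, against 4.03%. Nothing is read from these counts, since the same contrast chose the genes. The median difference over the 11 was -0.40, but Mtf1 enters it with 3 probe sets and Slc30a1 with 2. With the brightest probe set of each of the 8 genes the median was -0.04, with 4 positive and 4 negative differences, and over all probe sets tested it was 0.03.

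**Figure D3:**
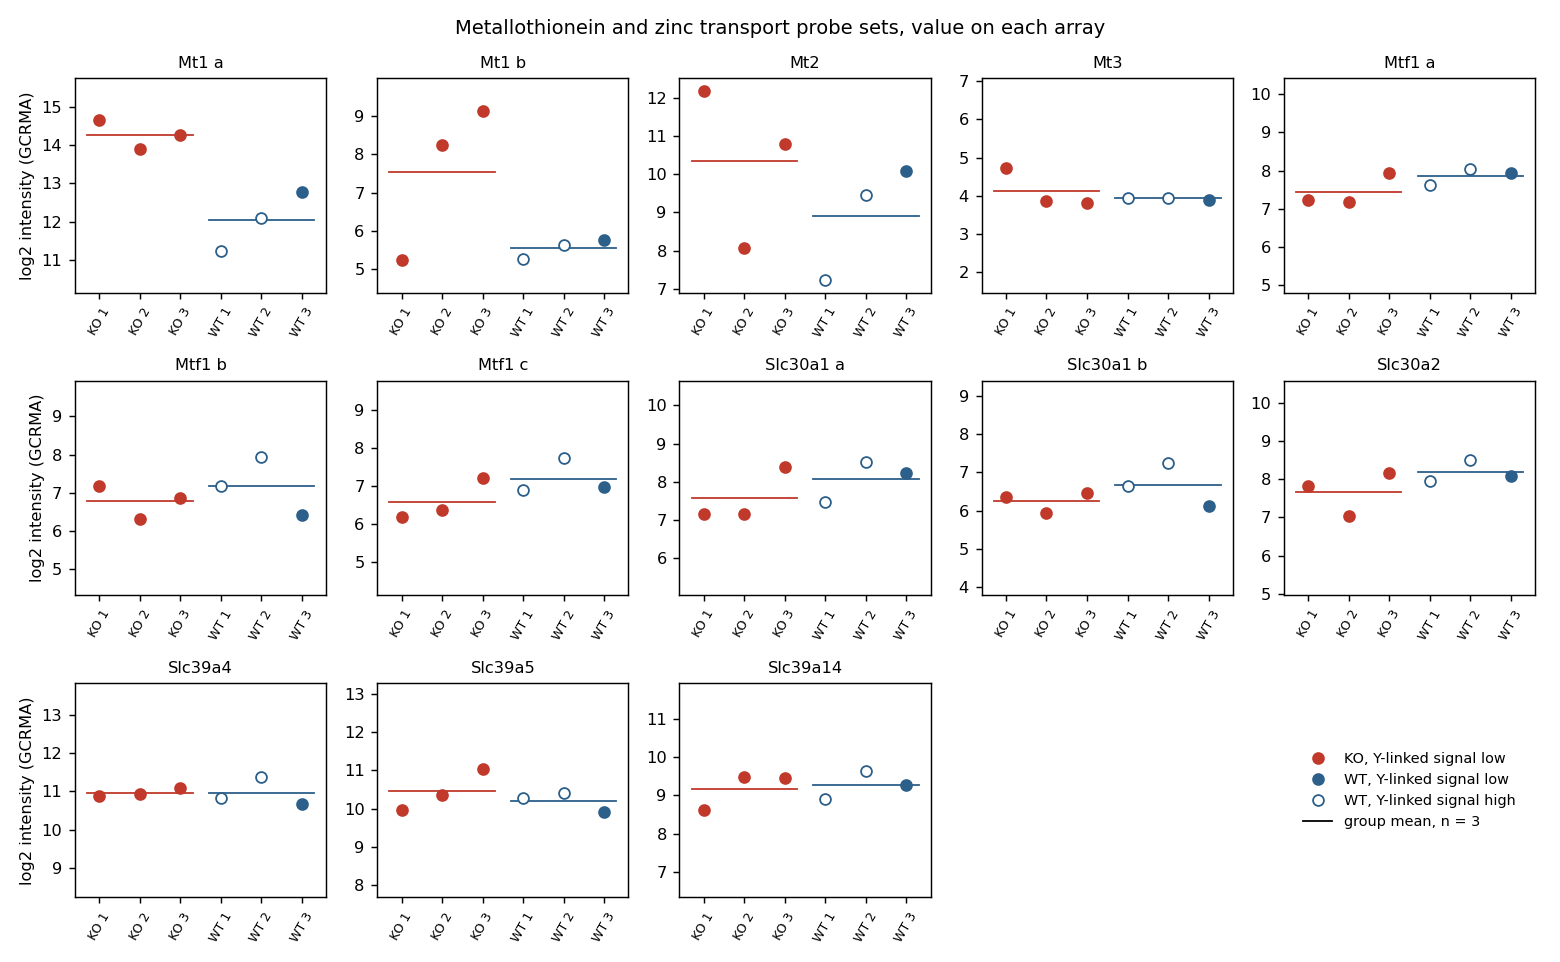
Log2 intensity of the 13 member probe sets above the filter on each array, on axes of equal span, with group means (n = 3). KO is separated from WT for Mt1 a only, beside 5.09% of all probe sets with every KO array above and 4.03% with every KO array below. The choice of these genes rests on Mt1. Open points mark WT 1 and WT 2, the arrays with high Y-linked signal.

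Mtf1, which encodes the zinc sensor, averaged lower in the mutants on all 3 probe sets, within the spread between mice. Its brightest probe set, Mtf1 a, stood at 7.24, 7.18 and 7.94 in KO and 7.62, 8.04 and 7.94 in WT, a difference of -0.41 (95% interval -1.04 to 0.22), and -0.66 without KO 3. The groups overlapped through KO 3. On the dimmest, Mtf1 c, the KO arrays read 6.18, 6.36 and 7.21 and the WT arrays 6.89, 7.72 and 6.97, a difference of -0.61 (-1.46 to 0.24) that ran from -0.92 without KO 3 to -0.35 without WT 2. Mtf1 b read 7.16, 6.32 and 6.86 in KO and 7.18, 7.94 and 6.41 in WT. Its difference of -0.40 (-1.41 to 0.61) ran from -0.78 without WT 3 to -0.01 without WT 2 and turned to 0.41 once Y-linked signal was modelled. Both dim Mtf1 probe sets lay between 2.14 and 2.26 on all arrays. Each of the 3 measured differences was negative with a 95% interval that included 0.

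Slc30a1, the zinc exporter that MTF1 switches on together with Mt1, also averaged lower in the mutants, within the spread. The brighter probe set, Slc30a1 a, read 7.16, 7.16 and 8.38 in KO and 7.47, 8.52 and 8.24 in WT, and Slc30a1 b read 6.35, 5.94 and 6.47 in KO and 6.65, 7.25 and 6.12 in WT. On both the groups overlapped. The differences were -0.51 (95% interval -1.53 to 0.52) and -0.42 (-1.19 to 0.35). With 1 array left out the first ran from -0.91 (KO 3) to -0.28 (WT 2). The second ran from -0.70 (WT 3) to -0.13 (WT 2) and turned to 0.17 once Y-linked signal was modelled.

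Slc30a2, which loads zinc into the granules of Paneth cells, read 7.82, 7.03 and 8.16 in KO and 7.94, 8.51 and 8.08 in WT. KO 2 was the lowest array, and KO 3 lay between WT 3 and WT 2. The difference was -0.51 (95% interval -1.30 to 0.28), and -0.19 without KO 2. Of 6 Paneth markers measured on the same arrays 5 averaged lower in KO and 1 higher, where 53.9% of all probe sets tested were higher. In 3 of the markers the highest mutant lay below the lowest control, beside 4.03% of all probe sets. The protease gene Mmp7 differed by -4.71 and the median marker by -0.74. The other 5 markers without Mmp7 had mean levels of 12.5 to 13.2 in KO and 13.1 to 13.6 in WT, so the groups overlapped there through KO 3 and WT 2. The part of Paneth marker level in the Slc30a2 values was not tested, and in bulk epithelium fewer cells of a type and less RNA in each cell cannot be told apart.

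The importers gave no difference beyond the spread between mice. Slc39a4, the uptake transporter of the brush border, read 10.89, 10.92 and 11.09 in KO and 10.84, 11.38 and 10.67 in WT. The difference was 0.00 (95% interval -0.55 to 0.56). Its sign turned under 6 of the alternatives, and it reached 0.32 once Y-linked signal was modelled. Slc39a5, an importer of the basolateral membrane, read 9.96, 10.36 and 11.04 in KO and 10.28, 10.41 and 9.91 in WT. Its difference of 0.25 (-0.49 to 1.0) ran from -0.04 without KO 3 to 0.499 without KO 1, and was 0.54 with the Y-linked term. Slc39a14, which carries zinc, iron and manganese, read 8.62, 9.47 and 9.45 in KO and 8.90, 9.64 and 9.28 in WT on its bright probe set. Its difference was -0.09 (-0.85 to 0.66), and it was -0.28 without WT 1, 0.19 without KO 1, 0.18 with array weights and 0.09 without WT 2. The brightest of the Slc39a14 probe sets under the filter read 3.10, 4.53 and 4.07 in KO and 3.10, 3.15 and 3.84 in WT. All 3 importers overlapped between the groups.

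Of the 19 other zinc transporter genes, 14 were above the filter, and 0 passed over all probe sets in either direction (limma adjusted p = 0.999 for each). Their differences ran from -0.81 to 0.81 around a median of -0.04, against 0.03 for all probe sets tested. The 3 with the smallest p kept the groups apart. Slc39a8, an importer of zinc and manganese, read 9.49, 8.76 and 9.12 in KO and 8.29, 8.56 and 8.09 in WT (difference 0.81 ± 0.25, SE). Slc39a10, an importer whose gene MTF1 is known to repress when zinc is ample, read 6.71, 7.42 and 7.19 in KO and 8.32, 7.56 and 7.87 in WT (difference -0.81 ± 0.28, SE). Slc39a11 read 9.99 to 10.08 in KO and 10.50 to 10.61 in WT (difference -0.52 ± 0.16, SE). Under the alternatives run, Slc39a8 stayed between 0.63 and 1.05, Slc39a10 between -0.99 and -0.61 and Slc39a11 between -0.56 and -0.49. These 3 were picked for the smallest p in this contrast, which favours steady values, so nothing is read from the steadiness. Of these 14 genes 1 had every KO array above every WT array and 2 had every KO array below, beside 5.09% and 4.03% of all probe sets.

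**Figure D4:**
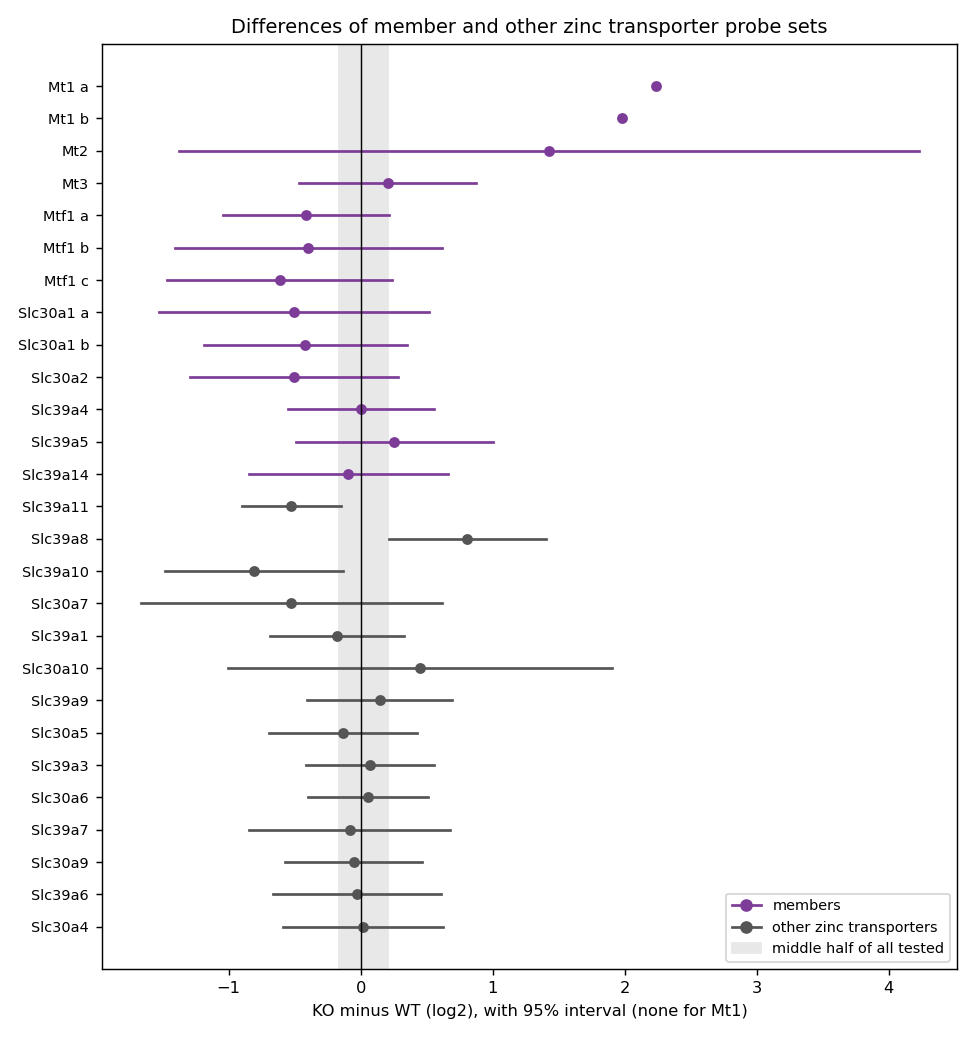
KO minus WT on the log2 scale with the 95% interval of the fit, unadjusted for the number of probe sets, for the 13 member probe sets and 14 other zinc transporters; the grey band spans the middle of all 18108 differences, -0.16 to 0.21. Mt1, which the choice of genes rests on, is drawn without an interval; the intervals of the other 11 member probe sets all include 0.

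Other gene groups tied to metallothionein were measured on the same arrays, and 0 of their genes passed the fit. Named genes are those with the smallest p in each group, and several of their values changed when 1 array was left out. Of 8 copper handling genes above the filter the median difference was 0.08. The copper pump gene Atp7a differed by -0.42 (-0.18 without KO 1), the copper chaperone gene Atox1 by 0.23 (0.0044 without KO 1) and the copper importer gene Slc31a1 by 0.14 (0.06 without KO 3). Of 11 genes of the metal and oxidative stress response the median was -0.07. The quinone reductase gene Nqo1 differed by -0.38 (-0.14 without WT 2, and 0.19 in the model with Y-linked signal). The selenoprotein gene Selenow differed by -0.18 (-0.09 without WT 3) and the heat shock gene Dnajb1 by 0.28 (-0.04 without KO 3). The heme oxygenase gene Hmox1, a classic metal-induced transcript, was under the filter.

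Of 8 glucocorticoid response genes the median was 0.05. Among these Fkbp5, which encodes a chaperone of the glucocorticoid receptor, read 8.67, 10.55 and 11.08 in KO and 8.04, 7.09 and 9.50 in WT. Its difference of 1.89 ± 0.80 (SE) ran from 1.33 (without WT 2) to 2.61 (without KO 1) with 1 array left out. It fell to 0.53 once Y-linked signal was modelled and to 0.60 against WT 3 alone, values that both rest mostly on WT 3. Errfi1 differed by 0.34, but by 0.03 without WT 1 and -0.36 against WT 3 alone. Tsc22d3 differed by -0.09, but by 0.21 without WT 3, 0.15 with the Gapdh term and -0.69 against WT 3 alone. Of 10 acute phase genes 3 were above the filter. Il6st differed by -0.40 (-0.11 without KO 1), Socs3 by -0.48 (-1.48 without WT 1 and 0.22 without WT 2) and Stat3 by -0.13 (-0.58 without KO 3, 0.23 without KO 1, and 0.52 in the model with Y-linked signal). The lipocalin gene Lcn2 and the serum amyloid genes Saa1, Saa2 and Saa3 were under the filter.

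The genes whose pattern over the 6 arrays was most like that of the bright Mt1 probe set were found by the root mean square distance between log2 values, each centred on its own mean, among 16073 probe sets with a single gene symbol. The nearest was Adgrd1, an adhesion receptor gene, at a distance of 0.39. It read 8.31, 7.91 and 7.58 in KO and 5.81, 6.18 and 6.67 in WT. Rassf5, a Ras-association gene of lymphocytes (0.39), and Nr0b2, an orphan nuclear receptor gene (0.48), followed. Next were Plek, the pleckstrin gene of leukocytes and platelets (0.50), and AI467606 (0.51). In each of these genes the lowest mutant lay above the highest control, which a search for patterns like that of Mt1 favours. For Slc30a2 the nearest were Tbx3 (0.09), Rgs2 (0.13), Sdc2 (0.13), Tmem144 (0.13) and Gsn (0.13).

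Markers of leukocytes stand beside Mt1 as follows. The 6 T and NK cell markers had mean levels of 7.76, 7.62 and 7.56 in KO and 5.67, 8.10 and 6.90 in WT. Their differences, from 0.01 to 1.38, were positive in 6 of 6, beside 53.9% of all probe sets tested. In 1 of the 6 every KO array lay above every WT array, beside 5.09% of all probe sets, and the others overlapped. WT 1, the lowest array for the bright Mt1 probe set, was also the lowest for the mean of these T and NK cell markers, but WT 2 was the highest. The mean of the 3 measured B and plasma cell markers ran from 5.51 to 8.59 in KO and from 4.28 to 6.85 in WT, and 3 of 3 overlapped between the groups. Of the 3 myeloid markers Csf1r, a macrophage growth factor receptor gene, differed by 2.24 and Adgre1 by 0.68, both with overlap. The lysozyme gene Lyz2 differed by -1.13 with every KO array below every WT array. So did the Paneth marker Lyz1, by -0.75, and which cells gave the Lyz2 signal was not tested. The 2 measured exocrine pancreas markers averaged 11.25 on KO 2 and 4.64 to 5.56 on the other arrays. Without KO 2 the difference of the bright Mt1 probe set was 2.42. The part of these cell types in the metallothionein values was not tested.

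**Figure D5:**
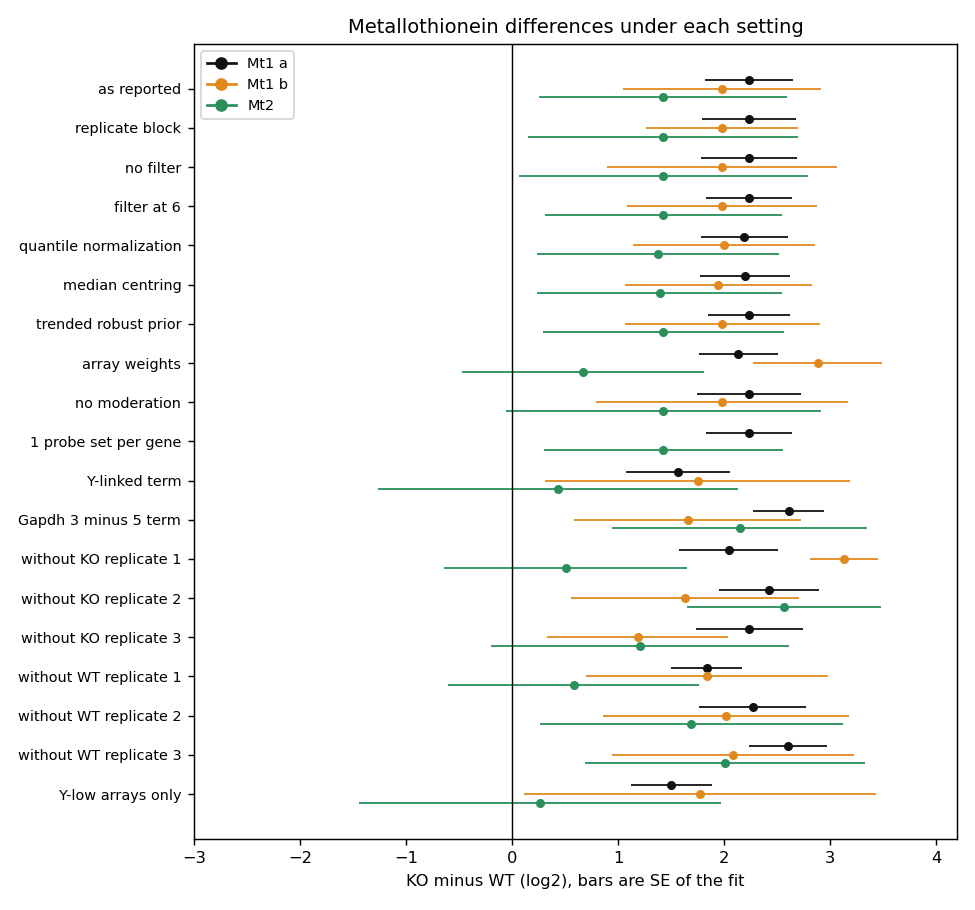
KO minus WT on the log2 scale (bars, SE of the fit) of the Mt1 and Mt2 probe sets as reported and under 18 alternatives, 1 of which (1 probe set per gene) leaves Mt1 b out. All differences drawn lie above 0; Mt1 a moves least, from 1.503 to 2.61, and Mt2 comes nearest to 0, at 0.26 on the arrays with low Y-linked signal.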

How the data were processed

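Total RNA was labelled with biotin and hybridised to single-colour Affymetrix arrays, 1 for each of 6 mice. The deposited log2 values were made by the authors with GCRMA, and limma was named too, per the submitters' processing notes; versions and genome build were not stated. GCRMA compresses differences near the floor. Each of the 6 value columns was matched to a mouse by its label, with 0 left over.

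Of 45101 probe sets, 64 array controls were left out. Names came from the platform annotation (34945 probe sets with 1 symbol, 932 with several, 9160 with none); 34741 matched RefSeq gene identifiers and 0 symbols changed. The 18108 whose mean over the 6 arrays reached 4 entered a 2-group, two-sided fit by lmFit and eBayes (limma 3.58.1, R 4.3.3) with Benjamini-Hochberg adjustment. Lists used the brightest probe set of each gene. Intervals are 95% and unadjusted. In 20 simulated data sets of 18108 probe sets for KO minus WT, the fit recovered 14.7%, 62.2% and 91.2% of changes of 1, 2 and 4 log2 units. Each simulation changed 200 probe sets and drew independent normal noise, with no sex-linked or RNA integrity difference between arrays. The shares need not hold for the real arrays, where Mmp7 at -4.71 was not called (limma adjusted p = 0.156).

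Members and lists were chosen with earlier results of these data known. All member probe sets were named, with the 3 genes of smallest p in each pathway list and the 5 genes most like Mt1 and Slc30a2; single cell type markers, Sox9 and Hmox1, Lcn2 and Saa genes under the filter were named after their values were seen. The settings varied were the normalization (quantile, median centring), the filter (none, or 6), the variance model (trended robust prior, unmoderated, array weights), 1 probe set per gene, a block for the replicate number, a covariate (Y-linked signal, or Gapdh 3' minus 5') and the omission of each array. The comparison on arrays with low Y-linked signal was added after seeing the data.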

Additional observations from a re-analysis of the deposited data

How the results depend on the processing

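Of the 13 member probe sets, 6 changed sign under at least 1 of the alternatives run, each of them with a reported difference between -0.42 and 0.25, and 0 of the 11 other than Mt1 passed under any (lowest limma adjusted p = 0.775). The difference of the bright Mt1 probe set stayed between 1.84 (without WT 1) and 2.60 (without WT 3) with each array left out. It was 1.57 once Y-linked signal was modelled and 1.503 on the 4 arrays with low Y-linked signal. The lone WT array of the latter is assumed to vary like the mutants, and both values rest mostly on WT 3. The number of probe sets called in all, 2 as reported, was 0 with a replicate block, no filter, no moderation, a Y-linked or Gapdh term or only the arrays with low Y-linked signal, 1 with a filter at 6, 4 with quantile normalization or median centring, 11 with array weights, and 0 (without WT 1 or WT 2) to 16 (without WT 3) with an array left out. At an unadjusted p under 0.05 there were 655. The counts of other members and of list genes called were 0 under every alternative run. Same-numbered mice did not deviate together (correlations over probe sets of -0.05, -0.29 and 0.03), so the numbers were not taken as pairs; the block left the Mt1 difference at 2.23 and changed no member call. Quantile normalization and median centring moved the median of all differences by -0.03 and -0.04. Signal near the array floor limits Mt3, Mt4 and the dim Mtf1 and Slc39a14 probe sets.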
